A study of Mus musculus with 32 samples.

Results

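Transcripts of 9 genes that mark steps in the making of vomeronasal sensory neurons were followed in the vomeronasal organ (VNO) of 4 mouse strains. The genes, taken by name from a list of 8 transcription factors and 1 growth-associated gene of this lineage, are Neurog1, Neurod1, Gap43, Lhx2, Emx2, Ebf2, Bcl11b, Tfap2e and Meis2, and they are 9 of the 49671 genes in the count table. The study asked how gene expression in this organ differs between strains and between sexes. It sequenced ribodepleted total RNA from the VNO epithelium of 32 single mice aged 42 days, with 4 females and 4 males of each of the strains C57/BL6 (B6 below), 129S6/SVEV (129), SJL/J (SJL) and SWR/J (SWR). The labels name no engineered allele and no treatment.

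The VNO detects pheromones and cues from other species, and its sensory neurons are replaced throughout life from stem cells in the epithelium. Progenitors pass through a stage that depends on the basic helix-loop-helix factors Neurog1 and then Neurod1. They become immature neurons that express Gap43, a protein of growing axons, and later mature neurons that express Omp, the olfactory marker protein. Along this path the cells take one of the alternative identities of the organ. Apical neurons express V1r receptors, the G protein subunit Gnai2 and the homeodomain factor Meis2, and basal neurons express V2r receptors, Gnao1 and the factor Tfap2e. The zinc finger factor Bcl11b takes part in the choice between them. Lhx2 and Emx2, both homeodomain factors, and Ebf2, a member of the early B cell factor family, act in olfactory and vomeronasal neurons more widely.

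The sequence before the transcription start given by RefSeq (build GRCm38.p6) was available for 7 of the 9 genes, in 8 windows of 250 bases, and not used here for Gap43 and Ebf2. The windows of Neurog1 and Neurod1 are shown because the transcripts of these genes varied together across mice, as described further on. The window of Tfap2e is shown because it held the most copies of the E box, the motif that basic helix-loop-helix factors read. All 3 lie on the minus strand and are printed 5′ to 3′ in the direction of the gene. The Neurod1 sequence stops after 135 bases, where the GENCODE annotation of the gene begins. By that annotation, the windows of Emx2, of Meis2 and of the downstream start of Lhx2 lie wholly within the span of the gene. Most of the Bcl11b window does too. Capitals mark TAATTA, a homeodomain motif, in Neurog1, and CANNTG, the E box, in Neurod1 and Tfap2e.

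Neurog1, chr13:56252181-56252430: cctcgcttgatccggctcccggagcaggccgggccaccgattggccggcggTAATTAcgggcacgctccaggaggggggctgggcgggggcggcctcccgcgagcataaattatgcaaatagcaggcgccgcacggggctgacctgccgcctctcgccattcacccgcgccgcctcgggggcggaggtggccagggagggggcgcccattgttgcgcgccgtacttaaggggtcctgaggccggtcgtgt
Neurod1, chr2:79456752-79456886: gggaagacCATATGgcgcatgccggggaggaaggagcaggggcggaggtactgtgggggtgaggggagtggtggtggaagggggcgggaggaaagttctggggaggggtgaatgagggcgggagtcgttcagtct
Tfap2e, chr4:126736270-126736519: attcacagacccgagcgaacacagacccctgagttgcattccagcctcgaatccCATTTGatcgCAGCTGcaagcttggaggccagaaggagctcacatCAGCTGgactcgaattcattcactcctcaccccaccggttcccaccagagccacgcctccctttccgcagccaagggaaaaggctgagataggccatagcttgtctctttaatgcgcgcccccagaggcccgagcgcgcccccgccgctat

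Both strands were searched. The E box CANNTG occurred 3 times in the Tfap2e window and 1 time in that of Neurod1, and 66.2% of the 32851 windows in the RefSeq set hold at least 1 copy. TAATTA occurred 1 time, in Neurog1, against 4.84% of all windows. The AP-2 motif GCCNNNGGC, read by the family of Tfap2e, occurred 2 times in the window of the downstream start of Lhx2 and 1 time in that of Bcl11b, against 13.7% of all windows. These AP-2 matches lie within the GENCODE span of the 2 genes. The palindromic motif of the EBF family, the E box variant CATCTG, which is one form of CANNTG, and the Meis motif TGACAG were found in no window of these genes, and 0.779%, 14.4% and 15.9% of all windows hold them. These matches describe the letters only.

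Libraries held between 5106398 and 18640871 counted read pairs, with a median of 11461344.5. Mature vomeronasal neurons were well represented, with an Omp count of 7871 to 30585 per library. Of the other markers examined, those of skeletal muscle did not reach the expression filter, and the T cell receptor genes Trac, Trbc1 and Trbc2 had counts of at most 13. Of 5 genes of ciliated respiratory cells, Foxj1 and Dnah5 were far higher in B6 female replicate 1 and 129 male replicate 1 than in other mice. The ciliary motor gene Dnah5 had 1650 and 3452 reads there and at most 589 in the other libraries. Foxj1 had 484 and 647 reads, and at most 118 in the others. Rsph1 and Ccdc39 stood less apart in any library, with at most 293 and 963 reads at medians of 170 and 665. Of 5 genes of the main olfactory epithelium, the channel gene Cnga2 and the G protein gene Gnal were highest in B6 male replicate 3. They had 132 and 223 reads there. B6 male replicate 4 followed with 38 and 83, and the other libraries had at most 8 and 50. Adcy3, Slc17a6 and Gfy were instead lower in B6 than in 129 (log2 fold changes −0.48, −0.26 and −1.30). The sum of all 5 genes was 4100 to 5100 normalized counts in B6 and 5950 to 8800 in 129. Every call on the 9 genes was repeated without the 2 libraries high in ciliary genes, and without each single library. Changes are given beside the calls or with the other settings. Leaving out B6 male replicate 3 ended the Neurog1 call of SJL against B6 (FDR 0.0722) and the Neurod1 call of SJL against 129 (FDR 0.0563), and no call of Lhx2, Emx2 or Ebf2.

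Markers of cells other than neurons also differed between strains. All 6 fibroblast markers and all 5 macrophage markers were higher in B6 than in 129. In SJL 5 of 6 and 4 of 5 were higher than in 129, and in SWR 4 of 6 and 4 of 5. Of all tested genes, 27.3%, 18.9% and 19.9% were higher in B6, SJL and SWR than in 129. The summed fibroblast markers ranged from 6410 to 15400 normalized counts in 129, from 10900 to 22900 in B6, from 14700 to 27000 in SJL and from 14600 to 23200 in SWR. The summed macrophage markers ranged from 405 to 590 in 129, below all other strains except SWR (534 to 785), and from 929 to 1230 in B6 and 804 to 1010 in SJL. Against 129 and with all libraries kept, Lhx2 and Bcl11b were called lower in each other strain, Emx2 in B6 and SJL, and Tfap2e in B6 alone (described further on). The part of these cells in the results was not tested.

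All 9 genes passed the filter on low counts, but they differed widely in depth. Median counts per library were 7 for Neurog1 and 46.5 for Neurod1, and between 386 and 3320 for the other genes. Neurog1 had 3 reads or fewer in 5 libraries and none in 1 of these, so that its values are the least precise. Per exon length, as TPM (reads per exon length, scaled to the same total in each library), Ebf2 was the most abundant at 99.9 ± 17.4 TPM (SD, n = 32), followed by Gap43 at 70.9 ± 16.6. Ebf2 exceeded Gap43 in 27 of the 32 libraries, and Gap43 exceeded Emx2 in 23.

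Emx2 (56.8 ± 8.29 TPM), Lhx2 (54.6 ± 7.75) and Meis2 (54.4 ± 8.21) were not separated, since Emx2 lay above Lhx2 in 20 libraries and Lhx2 above Meis2 in 14. Below them, in all 32 libraries, came Tfap2e (34.7 ± 6.1 TPM), Bcl11b (12.7 ± 2.1), Neurod1 (3.39 ± 0.996) and Neurog1 (0.892 ± 0.531), in this order. The order of the upper genes depends on the length used, because the merged exons of Meis2 are longer than its longest transcript. With the longest transcript of each gene as the length, Meis2 was at 103 TPM and Lhx2 at 73.2, and Meis2 moved to the second place. For scale, Omp was at 1670 ± 205 TPM, so that Neurog1 and Neurod1 were a small part of this RNA.

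**Figure D1:**
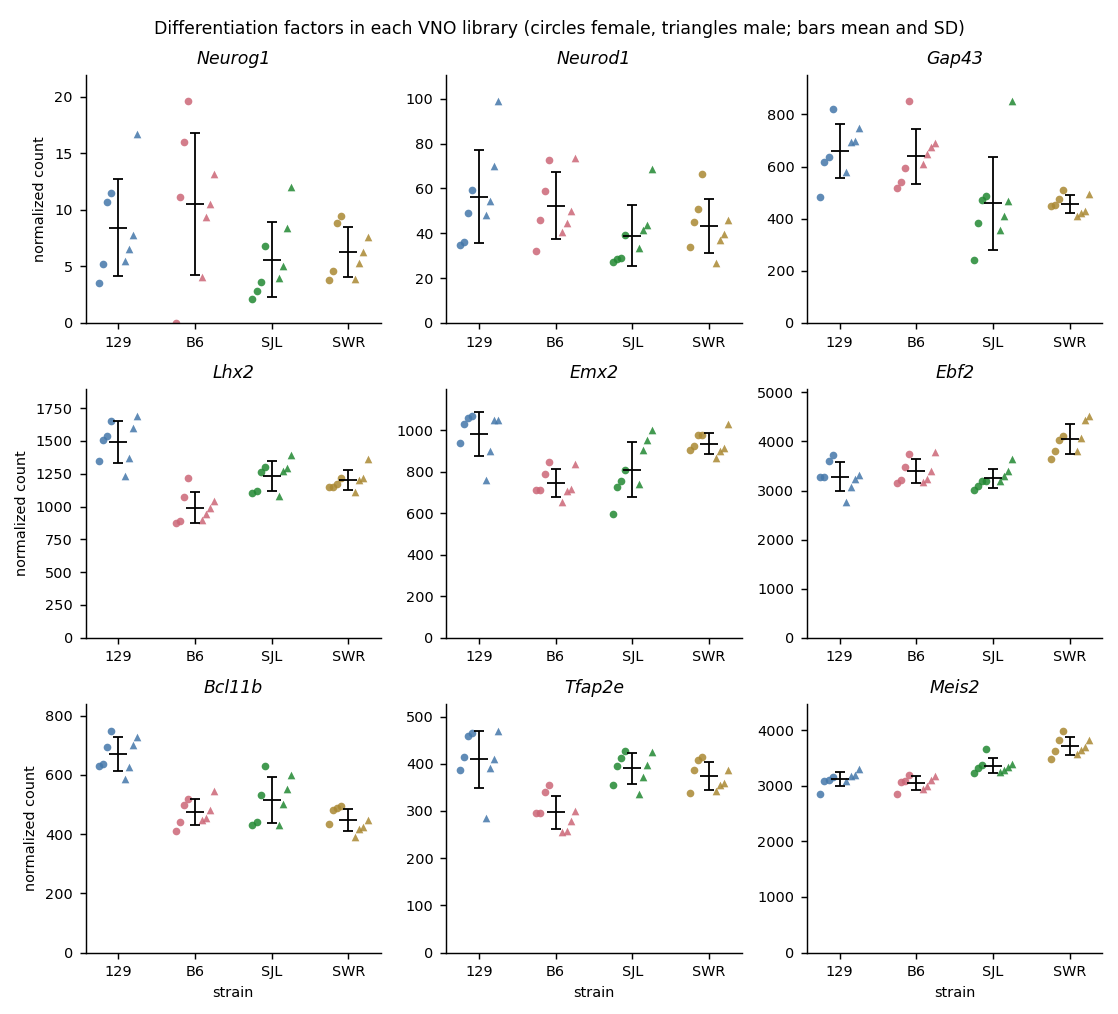
Normalized counts (vertical axes, starting at 0) of the 9 genes in each of the 32 libraries, by strain (horizontal axes). Circles are females, triangles are males, and bars give the mean and SD of 8 mice. The values of Neurog1 and Neurod1 are widely spread within each strain, whereas all 8 SWR values of Meis2 lie above all 8 values of 129.

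The transcripts of the first steps were compared first. Gap43 was lower in SJL and SWR than in 129 and B6, and Neurog1 and Neurod1 were also lower in SJL than in one other strain, by calls that were close to the threshold. The differences were 1.4-fold to 1.9-fold. Tests were edgeR quasi-likelihood tests of each strain pair with sex as a covariate, with p-values adjusted over 18382 genes (FDR), and log2 fold changes (LFC) are given with an approximate SE.

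Gap43 (chr16:42248442-42340651, minus strand) had normalized counts from 485 to 821 in 129, with a median of 664, and from 516 to 851 in B6, with a median of 629. In SWR it ranged only from 412 to 511 (median 450), below every B6 library, and in SJL from 240 to 851 (median 438). One SJL male, at 851, was as high as the highest B6 mouse, while the other SJL mice did not exceed 488. The LFC was −0.54 ± 0.14 for SWR against 129 (FDR 0.00254) and −0.52 ± 0.14 for SJL against 129 (FDR 0.00379). Against B6 it was −0.50 ± 0.14 for SWR (FDR 0.00544) and −0.48 ± 0.14 for SJL (FDR 0.00642). Without the high SJL male, replicate 1, the difference of SJL from 129 was −0.71 (FDR 7.6e-06). Gap43 did not differ detectably between B6 and 129 (LFC −0.04, 95% interval −0.32 to 0.24) or between SWR and SJL (−0.02, −0.30 to 0.26).

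In bulk tissue a lower level may come from fewer cells of a type or from less RNA per cell, and these cannot be told apart. The summed markers of mature neurons (Omp, Gng13, Ano1, Ano2, Xntrpc and Cnga4) were lowest in B6, where their median was 22700, against 25100 for SJL, 25600 for SWR and 27200 for 129. Taken as a ratio to this sum, Gap43 was lower in SWR than in 129 by 0.47 on the log2 scale (adjusted p = 0.00503, exact permutation test, n = 8 per strain) and lower in SWR and SJL than in B6 by 0.68 and 0.70 (adjusted p = 0.00168 and 0.022, exact permutation tests). The ratio did not pass the test between SJL and 129 (−0.49, adjusted p = 0.0901).

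Neurod1 (chr2:79452521-79456751, minus strand) ranged from 27.0 to 68.5 normalized counts in SJL (median 36.1), from 26.7 to 66.3 in SWR (median 42.4), from 31.9 to 73.4 in B6 (median 47.9) and from 34.9 to 98.9 in 129 (median 51.6). The ranges of the strains overlapped widely. It was lower in SJL than in 129 (LFC −0.52 ± 0.21, FDR 0.0472), and this call was lost when any of 21 of the 32 libraries was left out, when the 2 libraries high in ciliary genes were left out together (FDR 0.0652), and in DESeq2 (FDR 0.0549). The test for a difference among any strains did not call it (FDR 0.0756), but did without SWR female replicate 1 (0.0304), 129 female replicate 1 (0.0491) or SJL male replicate 1 (0.0155). Without SJL male replicate 1 it was also lower in SJL than in B6 (LFC −0.60, FDR 0.0195), and without SWR female replicate 1 lower in SWR than in 129 (−0.51, FDR 0.0478). Reads in the part of Neurod1 that overlaps Cerkl on the same strand are uncertain.

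Neurog1 (chr13:56250478-56252163, minus strand) ranged from 2.11 to 12.0 normalized counts in SJL (median 4.47), from 3.81 to 9.48 in SWR (median 5.81), from 3.49 to 16.7 in 129 (median 7.15) and from 0 to 19.6 in B6 (median 10.8). The highest and the lowest value both belonged to B6 mice. It was lower in SJL than in B6 (LFC −0.92 ± 0.37, FDR 0.041), and the same direction in SWR did not pass (−0.83 ± 0.37, FDR 0.0698). The SJL call was lost without any of 11 single libraries and without the 2 libraries high in ciliary genes (FDR 0.0725), and the test among any strains did not call Neurog1 (FDR 0.0806). Other single libraries had the opposite effect. The test among any strains passed without SJL male replicate 1 (FDR 0.0279), B6 male replicate 2 (0.0383) or B6 female replicate 4 (0.023), and SWR against B6 passed without either of the last 2 (FDR 0.0374 and 0.0243).

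The factors used across the neuron lineage, Lhx2, Emx2 and Ebf2, gave firmer differences, of at most 1.5-fold. Lhx2 and Emx2 were highest in 129 and lowest in B6 by their means, and Ebf2 was highest in SWR. Their spread within a strain was small, with coefficients of variation of at most 16.6%, against up to 59.7% for Neurog1.

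Lhx2 (chr2:38339281-38369733, plus strand), whose loss stops olfactory neurons from maturing, ranged from 876 to 1220 normalized counts in B6 (median 965) and from 1230 to 1690 in 129 (median 1520). No B6 mouse reached the lowest 129 mouse. SJL (1080 to 1390, median 1270) and SWR (1110 to 1360, median 1180) lay between and overlapped both. The LFC of B6 against 129 was −0.59 ± 0.07 (FDR 1.05e-08), a 1.5-fold difference. Lhx2 was also lower than in 129 in SJL (−0.29 ± 0.07, FDR 0.000999) and SWR (−0.33 ± 0.07, FDR 0.000194), and higher than in B6 in SJL (0.30 ± 0.07) and SWR (0.26 ± 0.07). SJL and SWR did not differ detectably (−0.04, 95% interval −0.18 to 0.09). As a ratio to the mature neuron markers, Lhx2 stayed lower in B6 than in 129 (−0.33, adjusted p = 0.00503, exact permutation test), while the differences of SJL and SWR from B6 no longer passed (0.16 and 0.07, adjusted p = 0.131 and 0.342).

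Emx2 (chr19:59458372-59465357, plus strand) ranged from 653 to 846 normalized counts in B6 (median 717), from 596 to 1000 in SJL (median 783), from 867 to 1030 in SWR (median 919) and from 763 to 1070 in 129 (median 1040). All SWR mice lay above all B6 mice, and SJL spanned most of the range of the other strains. B6 was below 129 by 0.40 ± 0.08 on the log2 scale (FDR 0.000106) and SWR above B6 by 0.32 ± 0.08 (FDR 0.0018). SJL was below 129 (−0.28 ± 0.08, FDR 0.00537). SWR against SJL just missed the threshold (0.20 ± 0.08, FDR 0.0505) and passed without the 2 libraries high in ciliary genes (FDR 0.028) and without any of 12 single libraries. As a ratio to the mature neuron markers, the differences of B6 from 129, SWR from B6 and SJL from 129 did not pass (−0.14, 0.13 and −0.18, adjusted p = 0.0743, 0.208 and 0.137, exact permutation tests). SJL was not called against B6 (LFC 0.12, FDR 0.248), but was called higher without SJL female replicate 1 (0.18, FDR 0.0472).

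Ebf2 (chr14:67233292-67430918, plus strand) ranged from 3640 to 4520 normalized counts in SWR (median 4040). It ranged from 2760 to 3720 in 129 (median 3270), from 3150 to 3780 in B6 (median 3310) and from 3010 to 3640 in SJL (median 3200). All SWR mice exceeded all SJL mice, and SWR overlapped 129 and B6 only at its lower end. SWR was above 129 by 0.29 ± 0.05 (FDR 5.19e-05), above B6 by 0.24 ± 0.05 (FDR 0.00053) and above SJL by 0.31 ± 0.05 (FDR 3.07e-05) on the log2 scale. The other 3 strains did not differ detectably from each other, with LFCs between −0.07 and 0.05. As a ratio to the mature neuron markers the order changed, since B6 then also exceeded 129 (0.31, adjusted p = 0.00168) and SWR no longer differed detectably from B6 (0.05, adjusted p = 0.457, exact permutation tests).

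**Figure D2:**
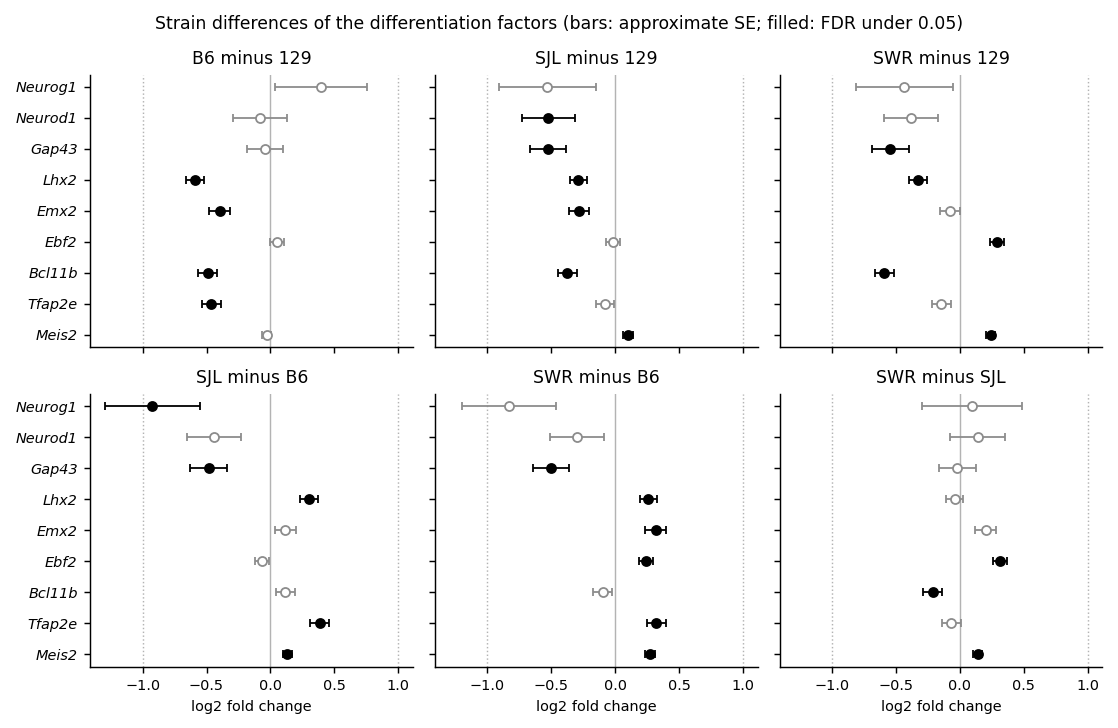
LFC (horizontal axes) of the 9 genes in each of the 6 strain pairs, with bars of 1 approximate SE. Filled points have an FDR under 0.05, and dotted lines mark a 2-fold change. No point lies beyond these lines, and the bars of Neurog1 are the longest.

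Among the factors of the apical and basal branches, Bcl11b was highest in 129, Tfap2e was lowest in B6, and Meis2 was highest in SWR. Each of the 3 genes thus had its own order of strains.

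Bcl11b (chr12:107910403-108003602, minus strand) ranged from 586 to 749 normalized counts in 129 (median 664), from 430 to 630 in SJL (median 516), from 412 to 547 in B6 (median 468) and from 389 to 496 in SWR (median 442). No B6 or SWR mouse reached the lowest 129 mouse. The LFC against 129 was −0.59 ± 0.07 for SWR (FDR 5.98e-08), −0.49 ± 0.07 for B6 (FDR 1.46e-06) and −0.38 ± 0.07 for SJL (FDR 0.000103). All 3 differences from 129 also passed as a ratio to the mature neuron markers (−0.52, −0.24 and −0.28, adjusted p at most 0.0257, exact permutation tests). SWR was further below SJL (−0.21 ± 0.07, FDR 0.0261), a call that was lost when any of 7 single libraries was left out and without the filter on low counts (FDR 0.0538).

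Because T lymphocytes also use Bcl11b, their markers were examined beside it. The sum of the 10 markers had median normalized counts of 225 in SWR, 290 in SJL, 297 in B6 and 431 in 129, in the same order of strains as Bcl11b except that SJL and B6 were nearly equal. Of this sum, Cd247 alone made 398 in 129 and 166 in SWR, and without Cd247 the medians were 28.0 in 129, 45.7 in SWR, 64.0 in SJL and 71.5 in B6, so that 129 was then lowest. The defining genes Cd3e, Cd3d and Cd3g had counts between 0 and 14 per library, and 7 of the 10 markers did not pass the filter. Within the strains, Bcl11b was not detectably related to the sum of the 10 markers (r = −0.167, adjusted permutation p = 0.543, n = 32). Since Cd247 makes most of this sum and the relation was not repeated without it, the other markers were not tested by it.

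Tfap2e (chr4:126716006-126736240, minus strand), which keeps basal neurons in their identity, ranged from 256 to 354 normalized counts in B6 (median 296). In 129 it ranged from 286 to 470 (median 413), in SJL from 335 to 427 (median 397) and in SWR from 338 to 415 (median 373). Most B6 mice lay below all mice of SJL and SWR, and a single 129 male, at 286, fell into the B6 range. B6 was below 129 by 0.46 ± 0.07 on the log2 scale (FDR 3.19e-06), and SJL and SWR were above B6 by 0.39 ± 0.07 (FDR 6.34e-05) and 0.32 ± 0.07 (FDR 0.000715). SJL and SWR did not differ detectably from 129 (−0.08 and −0.14, FDR 0.426 and 0.11). Without the low 129 male, replicate 4, SWR was called lower than 129 (−0.19, FDR 0.0145). As a ratio to the mature neuron markers only the difference of SJL from B6 passed (0.24, adjusted p = 0.00839, exact permutation test), while B6 against 129 gave −0.20 (adjusted p = 0.0684) and SWR against B6 gave 0.13 (adjusted p = 0.208).

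Meis2 (chr2:115863064-116065839, minus strand) was the least variable of the 9 genes, with coefficients of variation between 3.86 and 4.34% in the strains. It ranged from 2850 to 3200 normalized counts in B6 (median 3080), from 2850 to 3300 in 129 (median 3130), from 3230 to 3670 in SJL (median 3330) and from 3490 to 3990 in SWR (median 3670). All SJL and SWR mice lay above all B6 mice, and all SWR mice also above all 129 mice. SWR was above B6 by 0.27 ± 0.04 (FDR 1.83e-07), above 129 by 0.24 ± 0.04 (FDR 1.52e-06) and above SJL by 0.14 ± 0.04 (FDR 0.00256) on the log2 scale. SJL was above B6 by 0.13 ± 0.04 (FDR 0.00351) and above 129 by 0.10 ± 0.04 (FDR 0.0273), and the last call was lost without 129 female replicate 3 (0.08, FDR 0.0642), without SJL female replicate 4 (0.08, FDR 0.0726) and without the filter on low counts (FDR 0.14). Relative to the mature neuron markers, Meis2 was higher in B6 than in 129 by 0.23 (adjusted p = 0.00839, exact permutation test), whereas the LFC had been −0.03, and SWR no longer differed detectably from B6 or SJL.

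**Figure D3:**
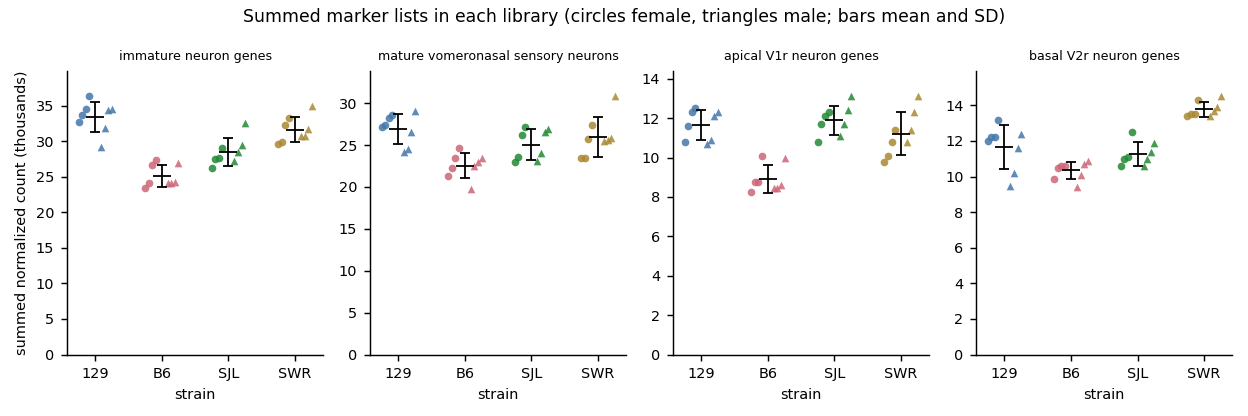
Summed normalized counts (vertical axes, starting at 0) of 4 of the marker lists in each of the 32 libraries, by strain. Circles are females, triangles are males, and bars give the mean and SD of 8 mice. B6 has the lowest median in each of these 4 lists. In some lists not shown, such as stem and progenitor genes or macrophages, its median is the highest.

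Over all 9 genes, 0 passed a 2-fold limit with an FDR under 0.05 in any strain pair, where 19.8% of the tested genes did. Neurog1 alone passed it in SJL against B6 when SJL male replicate 1 (LFC −1.20), B6 male replicate 2 (−1.07) or B6 female replicate 4 (−1.04) was left out. All 9 of 9 had an FDR under 0.05 in at least 1 pair, beside 80.1% of the tested genes, and 7 of 9 in the test among any strains, beside 73.1%. These shares do not set the 9 genes apart from the tested genes. The pairs share strains, so their calls are given side by side.

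Between B6 and 129, 0 of the 9 genes were higher in B6 (27.3% of tested genes) and 4 were lower (25.5%), namely Lhx2, Emx2, Bcl11b and Tfap2e. Between SJL and 129, Meis2 was higher in SJL (18.9% of tested genes) and 5 genes were lower (19.4%), which were Neurod1, Gap43, Lhx2, Emx2 and Bcl11b. Between SWR and 129, Ebf2 and Meis2 were higher in SWR (19.9%) and Gap43, Lhx2 and Bcl11b lower (21.8%). Every call of Lhx2 and Bcl11b against 129 was thus toward a lower level. Between SJL and B6, Lhx2, Tfap2e and Meis2 were higher in SJL (22.3%) and Neurog1 and Gap43 lower (23.4%). Between SWR and B6, 5 genes were higher in SWR (19.8%), namely Lhx2, Emx2, Ebf2, Tfap2e and Meis2, and Gap43 was lower (21.1%). SWR and SJL differed least, with Ebf2 and Meis2 higher in SWR (15.5%) and Bcl11b lower (17%).

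Ranges of all 8 mice that did not overlap were a stricter description. They were found for 2 genes between B6 and 129 (14.4% of tested genes), 2 between SWR and 129 (13.5%), 1 between SJL and B6 (13.1%), 3 between SWR and B6 (12.5%), 1 between SWR and SJL (10.2%) and none between SJL and 129 (11.9%). Meis2 accounted for 3 of these cases and Bcl11b for 2.

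The balance of the apical and basal branches was measured as ratios of counts within a library, which need no normalization. Meis2 was also set against Bcl11b, which takes part in the choice of branch and is not taken here as a basal marker. Meis2 stood highest relative to Bcl11b in SWR and lowest in 129, and relative to Tfap2e highest in B6 and lowest in 129. The ratios of the G protein subunits and of the receptor families did not follow the same order of strains.

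The log2 ratio of Meis2 to Bcl11b was 2.22 ± 0.11 in 129 (SD, n = 8), 2.69 ± 0.16 in B6, 2.72 ± 0.18 in SJL and 3.06 ± 0.14 in SWR. All 8 values of 129 (2.07 to 2.40) lay below all values of each other strain. The differences from 129 were 0.47, 0.49 and 0.83, each with an exact permutation p of 0.000155, the smallest that 8 against 8 allows (adjusted p = 0.000932 over 24 tests). SWR also exceeded B6 and SJL, by 0.37 and 0.34 (adjusted p = 0.00311 and 0.00746, exact permutation tests), whereas SJL and B6 differed by 0.03 (adjusted p = 0.742).

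The log2 ratio of Meis2 to Tfap2e was 2.94 ± 0.26 in 129, 3.11 ± 0.11 in SJL, 3.31 ± 0.15 in SWR and 3.37 ± 0.19 in B6, and the ranges overlapped in every pair. It was higher than in 129 in B6 (0.43, adjusted p = 0.00829) and SWR (0.37, adjusted p = 0.0116), and higher than in SJL in B6 and SWR (by 0.26 and 0.21, adjusted p = 0.0128 and 0.0123, all exact permutation tests). The difference of SJL from 129 did not pass (0.17, adjusted p = 0.141), but did without 129 male replicate 4, the mouse with the low Tfap2e value (0.25, adjusted p = 0.00678).

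The ratio of Gnai2 to Gnao1 was highest in SJL (log2 2.51 ± 0.28) and near 2.1 in 129 (2.14 ± 0.15) and B6 (2.09 ± 0.16), with SWR at 2.30 ± 0.23. SJL exceeded 129 and B6 by 0.38 and 0.42 (adjusted p = 0.0121 and 0.00829, exact permutation tests). Summed over 207 Vmn1r and 123 Vmn2r genes, the log2 ratio of the receptor families was highest in 129 (−1.18 ± 0.15) and lowest in B6 (−1.52 ± 0.09), without overlap (difference −0.34, adjusted p = 0.000932, exact permutation test). B6 against 129 therefore had opposite signs in the ratio of Meis2 to Tfap2e and in the ratio of the receptor families. Reads of all strains were counted on the B6 genome, and the paper reports polymorphisms between strains in receptor genes. Their effect on the receptor ratio was not tested.

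**Figure D4:**
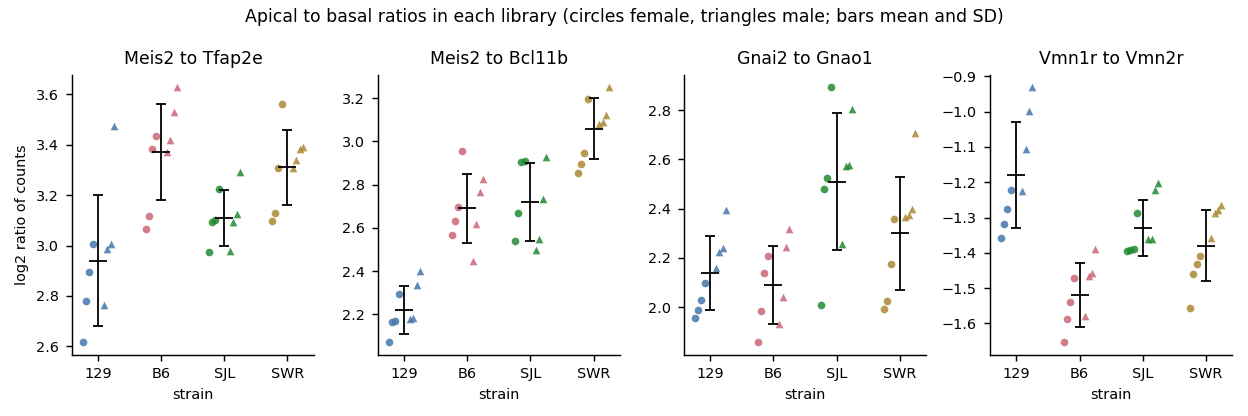
Log2 ratios of counts (vertical axes, not starting at 0) in each of the 32 libraries, by strain. The 4 ratios are Meis2 to Bcl11b and ratios of an apical to a basal measure. Circles are females, triangles are males, and bars give the mean and SD of 8 mice. The Meis2 to Bcl11b values of 129 lie below those of each other strain, and the Vmn1r to Vmn2r values of B6 lie below those of 129.

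Other genes of the same steps were taken from fixed lists. Of 16 genes of stem cells and progenitors, 15 were tested, 12 had an FDR under 0.05 in the test among any strains and 4 passed the 2-fold limit in a pair, beside 73.1% and 19.8% of all tested genes. The keratin gene Krt5 and its regulator Trp63, both of basal stem cells, were lower in SJL than in B6 (LFC −1.73 ± 0.40, FDR 0.000675, and −1.50 ± 0.26, FDR 1.92e-05). Trp63 and the Notch ligand gene Dll1 were higher in B6 than in 129 (1.34 ± 0.26, FDR 6.78e-05, and 1.16 ± 0.25, FDR 0.000187). Fezf1, a factor of early olfactory neurons, was lower in SJL than in B6 (−1.13 ± 0.39, FDR 0.0169), with at most 19.2 normalized counts in any library, and the test among any strains did not call it (FDR 0.0586). In this pair 0 of the 15 genes were higher in SJL and 6 were lower (22.3% and 23.4% of tested genes), and the summed list had medians of 4950 in SJL and 5100 in B6.

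All 16 genes of immature neurons were tested, and 14 differed among strains, beside 73.1% of all tested genes. Between B6 and 129, 1 was higher in B6 and 11 were lower, beside 27.3% and 25.5% of all tested genes, with a median LFC of −0.23 against 0.02 over all tested genes. The summed list had a median of 24200 in B6, 28100 in SJL, 31200 in SWR and 34000 in 129. Nhlh2, a helix-loop-helix factor of young neurons, passed the 2-fold limit, with 675 to 884 normalized counts in SJL and 1620 to 2200 in 129 (LFC −1.40 ± 0.07, FDR 6.21e-18). The ranges of these strains were far apart. Between SJL and 129, 0 genes were higher and 8 were lower in SJL (18.9% and 19.4% of tested genes), and between SWR and SJL 6 were higher in SWR and 0 lower (15.5% and 17%).

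Of 22 factors and cofactors of the same families as the 9 genes, 15 were tested, 11 differed among strains and 1 passed the 2-fold limit, beside 73.1% and 19.8% of all tested genes. This was Tfap2c, a relative of Tfap2e, with 5.25 to 13.1 normalized counts in 129 and 17.7 to 34.5 in SJL (LFC 1.46 ± 0.24, FDR 5.88e-06). Ebf1, a relative of Ebf2, was lower in SWR than in B6 (−0.19 ± 0.05, FDR 0.000699), where Ebf2 was higher. The 7 relatives that were not tested, Neurog2, Neurog3, Neurod2, Neurod4, Neurod6, Lhx9 and Tfap2b, did not pass the filter on low counts, so that nothing is said of them.

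Whether genes of successive steps vary together from mouse to mouse was asked within the groups of strain and sex. The deviation of each library from its group mean was correlated for 10 pairs over 32 mice, with p-values from 100000 shuffles within groups, adjusted over the 10 pairs. Genes of adjacent early steps moved together, whereas the apical and basal factors did not move against each other.

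Neurog1 and Neurod1 were correlated (Pearson r = 0.591, adjusted permutation p = 0.0112, Spearman rho = 0.684, adjusted permutation p = 0.00205). The value was 0.689 without the 2 mice farthest out in Neurog1, and between 0.361 and 0.867 in the 4 lanes. Lane here is a number from 1 to 4 in the labels, which was read as the sequencing lane. Neurod1 and Gap43 followed (r = 0.541, adjusted permutation p = 0.00727, rho = 0.478, adjusted permutation p = 0.023), with 0.449 without the 2 farthest mice and 0.396 to 0.878 in the lanes. Gap43 moved with Stmn2, another gene of growing axons (r = 0.675, adjusted permutation p = 0.00727, rho = 0.602, adjusted permutation p = 0.0077), with 0.516 without the 2 farthest mice and 0.299 to 0.846 in the lanes. Its values within single strains ranged from −0.163 in B6 to 0.868 in 129. By contrast, Gap43 was not related to Omp of mature neurons (r = −0.134, adjusted permutation p = 0.57, rho = −0.102).

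Lhx2 and Emx2 moved together (r = 0.538, adjusted permutation p = 0.0254, rho = 0.543, adjusted permutation p = 0.023), with 0.664 without the 2 farthest mice and 0.501 to 0.887 in the lanes. Within strains it was 0.736 in 129 and 0.856 in SJL, but 0.122 in B6 and 0.105 in SWR. Tfap2e moved with Gnao1, the G protein gene of the basal neurons that express it (r = 0.622, adjusted permutation p = 0.0028, rho = 0.644, adjusted permutation p = 0.00205), with 0.572 without the 2 farthest mice and 0.486 to 0.789 in the lanes. Meis2 was not detectably related to Gnai2 (r = 0.162, adjusted permutation p = 0.543, rho = 0.2) nor to Tfap2e (r = −0.064, adjusted permutation p = 0.737, rho = −0.028). Meis2 also varied less than Tfap2e between mice of a strain.

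**Figure D5:**
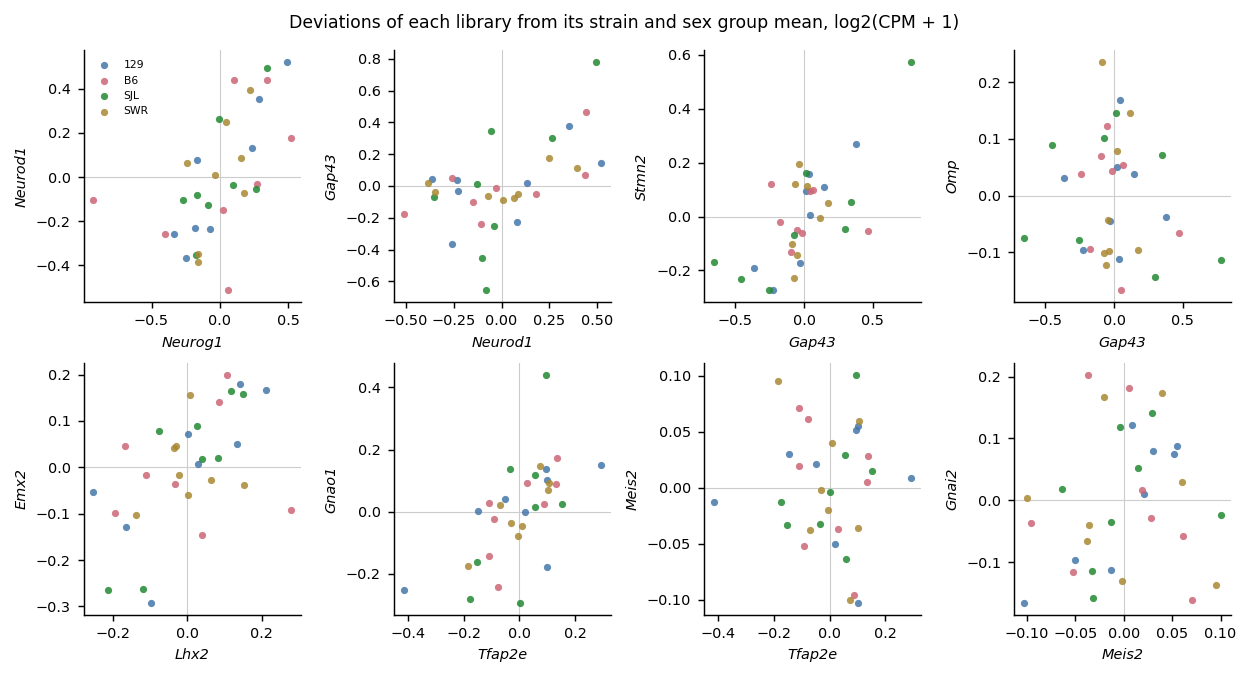
Deviations of each library from the mean of its strain and sex group, in log2(CPM + 1), for 8 of the 10 pairs, with 1 point for each of the 32 mice, coloured by strain. The upper row shows Neurog1 with Neurod1, Neurod1 with Gap43 and Gap43 with Stmn2 rising together, and Gap43 with Omp without a trend. The lower row shows trends for Lhx2 with Emx2 and Tfap2e with Gnao1, and none for Meis2.

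The genes most like each of the 9 in this variation were listed by Spearman's rho over the 32 mice, as a description. All points share the library, so that tissue composition and depth enter every value. For Neurog1 they were Mcm5 (0.695), Tex15 (0.692) and Neurod1 (0.684), and for Neurod1 Top2a (0.82), Dpt (0.812) and Nsg2 (0.788). Mcm5 and Top2a are genes of DNA replication and mitosis, but Dpt, with nearly the rho of Top2a, is not. For Gap43 they were the stathmin gene Stmn1 (0.837), the tubulin gene Tubb5 (0.795) and Bfsp2 (0.776). Lhx2 was most like Pitpna (0.908), Atf5 (0.901) and Hcn4 (0.895), where Atf5 is a factor of receptor choice in olfactory neurons. Emx2 was most like Rtn1 (0.756), Crmp1 (0.749) and Bcl11b (0.74). Ebf2 was most like Jph1 (0.777), Wwp2 (0.765) and its relative Ebf1 (0.761). Of the branch factors, Bcl11b was most like Ankrd13b (0.872), Nomo1 (0.855) and Nacad (0.834), and Tfap2e most like Mgat5 (0.784), Mmp24 (0.765) and Impdh1 (0.756). Meis2 was most like Gm37397 (0.693), Cdk14 (0.687) and Lax1 (0.682).

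Sex differences in the 9 genes were small and none was called. With strain as an additive term, 0 of 9 passed the limit of 2-fold and an FDR under 0.01 (0.0381% of tested genes) and 0 had an FDR under 0.05 (0.283%). Tfap2e alone had an unadjusted p under 0.05 (8.97% of tested genes), lower in males by 0.14 ± 0.05 on the log2 scale (FDR 0.406). DESeq2 called 0 of the 8 genes for which it gave an adjusted p, Neurog1 being without one. The 95% interval of the male to female LFC lay between −0.09 and 0.10 for Lhx2 and between −0.05 and 0.05 for Meis2, so that differences above these sizes were not seen, but between −0.47 and 0.57 for Neurog1.

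Within single strains, 0 of 9 genes had an FDR under 0.05 in 129 (0.0816% of tested genes), B6 (0.103%), SJL (0.125%) or SWR (0.348%). The LFCs between males and females within strains ranged from −0.48 to 0.89. The interaction of sex and strain was called in 0 of 9 genes (0.0163% of tested genes), and 3 of 9 had an unadjusted p under 0.05 (8.94%), which were Emx2, Ebf2 and Neurod1 (FDR 0.456, 0.521 and 0.532). The sexes were thus not told apart by any of the 9 genes at this depth and group size.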

How the data were processed

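RNA was measured in the VNO epithelium of 32 mice (8 groups of strain and sex, 4 mice each), and all libraries were used. The authors made stranded, ribodepleted libraries, sequenced them as pairs of 125 bp, trimmed reads with Trim Galore and mapped them with STAR to GRCm38 (mm10). The genome is that of B6, and its effect on the counts of other strains was not tested. The deposited counts are uniquely mapped pairs per gene of Ensembl. The deposited normalized signal is, by the authors' description, each count after division by a DESeq2 size factor. The count to signal ratio was checked to be constant within each library.

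The 9 genes and the gene lists were chosen with earlier results of these data known. Pathway genes are named by a rule, as up to 4 genes with the smallest FDR of the test among any strains among those past 2-fold in a pair. For each of the 9 genes the 3 with the highest rho are named. Ebf1 was picked after its values were seen.

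DE was tested on counts with edgeR 4.0.16 (R 4.3.3, limma 3.58.1) by TMM scaling, filterByExpr over the 8 groups (18382 of 49671 genes kept), the quasi-likelihood F test and Benjamini-Hochberg adjustment. Strain pairs used an additive term for sex, and sexes one for strain. Sex within strain and the interaction used 8 group means. SE was approximated from the LFC and its F statistic (|LFC|/√F), and intervals are 1.96 SE to each side. Levels are deposited normalized counts, and TPM used merged exon lengths of GENCODE M21 on the same build. Ratios were compared by two-sided exact permutation of 8 against 8, adjusted over 24 tests, and ratios to mature markers over 54. Relations used log2(CPM + 1), two-sided. One of the 10 relations is not reported here. The edgeR tests of strain, sex, sex within strain and interaction were tried on simulated counts. The labels give a number from 1 to 4, read as lane and used as replicate number. Same-numbered libraries did not deviate together in the median (median r −0.022 over 112 pairs, 0.011 over 336 other pairs). The highest r of a single pair was 0.561 with the same number and 0.423 with different numbers. All 48 pairs of replicates differed beyond sampling noise (chi-square per degree of freedom 2.71 to 48.2). Depths set the precision. Alternatives were DESeq2 1.42.0, its size factors, no filter, lane as block, each library left out, a 1.5-fold limit, glmTreat, a pseudocount of 0.25, deposited normalized counts and the longest transcript. Leaving out 2 libraries together (those high in ciliary genes, or the farthest in a relation) and ratios to mature markers were added after seeing the data.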

Additional observations from a re-analysis of the deposited data

Results flagged for a closer look

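In each group of 4 mice the highest and lowest values of the 9 genes and 4 ratios were compared with the rest by Dixon's criterion, whose critical value of 0.829 chance passes in about 5% of groups. Of 104 groups 3 passed. In SJL females, Neurod1 was at 39.1 normalized counts in replicate 1 and at 27.0 to 29.0 in the others. In SWR males, the log2 ratio of Gnai2 to Gnao1 was 2.71 in replicate 1, and the next value was 2.40. In SJL females, the log2 ratio of Vmn1r to Vmn2r was −1.29 in replicate 2, where the next value was −1.39. That number is within what chance gives, and the high Gap43 value of 1 SJL male did not pass.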

How the results depend on the processing

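With the number read as lane as a replicate block, the only call that changed was that of Neurog1 for SJL against B6 (LFC −0.86, FDR 0.061). The near-zero difference of Gap43 between SWR and SJL became 0.0023, and the correlation of Lhx2 and Emx2 rose to 0.72. Libraries with the same number did not deviate together in the median, though single pairs did. The Neurog1 call was also lost without a filter (FDR 0.0841) and in DESeq2 (FDR 0.0545), and Emx2 in SWR against SJL passed with DESeq2 size factors (0.21, FDR 0.0443). A 1.5-fold limit was passed by 3 genes and a test against that fold by 0. Without the 2 farthest libraries the correlation of Gap43 and Stmn2 was 0.52. Without the filter 17276 of 44957 genes were called between B6 and 129, against 9702 of 18382.

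As ratios to mature neuron markers, 18 of the 54 gene and pair combinations passed, against 29 in edgeR. Signs changed for B6 against 129 in Neurod1 (0.18), Gap43 (0.21) and Meis2 (0.23), for SJL against B6 in Emx2 (−0.05), Bcl11b (−0.05) and Meis2 (−0.02), for SJL against 129 in Ebf2 (0.09) and Tfap2e (0.04), and for SWR against SJL in Gap43 (0.02). The cause was not tested.

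Leaving out libraries changed the sign of near-zero differences. The ranges were −0.02 to 0.38 (Neurog1) and −0.11 to 0.17 (Gap43) for SWR against SJL, −0.18 to 0.06 (Neurod1) and −0.17 to 0.02 (Gap43) for B6 against 129, and −0.06 to 0.01 (Ebf2) for SJL against 129. For males against females they were −0.05 to 0.18 (Neurog1), −0.01 to 0.04 (Lhx2), −0.0023 to 0.05 (Emx2) and −0.01 to 0.01 (Meis2, at −0.0028 without the 2 libraries high in ciliary genes). The number of genes past 2-fold was 0 to 1. The log2 ratio difference between SJL and 129 was 0.12 to 0.25 for Meis2 to Tfap2e and −0.17 to −0.11 for Vmn1r to Vmn2r, where the call was lost without any of 10 single libraries. It was −0.01 to 0.07 for Meis2 to Bcl11b between SJL and B6, and for Gnai2 to Gnao1 0.15 to 0.25 between SWR and B6 and −0.29 to −0.16 between SWR and SJL. The low counts of Neurog1 limit what can be said of it.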
